A study of Homo sapiens with 15 samples.

Results

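In cytosolic extracts of U2OS cells, an osteosarcoma cell line, 87 RNAs took a smaller share of the reads in each of 4 kinds of pellet than in the extract itself. They were the genes whose normalised read count in the mock, dsRNA, silvestrol and PEG pellets all lay at least 0.7 below Input on the log2 scale, after the median over genes was set to 0, and whose mean in Input was at least 5 CPM (read counts scaled to library totals of 1000000). They were 87 of the 11981 nuclear genes with enough reads to be eligible (0.726%), out of 16612 genes kept and 57500 counted. A value of -0.7 means that 61.6% of a gene's Input level was left in the pellet, relative to the median gene. The members were selected on these values, so the values are given as a description, with no test against Input.

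The study asked which RNAs enter stress granule (SG)-like condensates induced in cytosolic extract (CE). All 15 libraries came from U2OS cells that the labels call wild type, while the study names the pelleted material YFP-G3BP1 condensates. In vitro translation reactions were held for 2 h at 37 °C with 250 nM double-stranded RNA (dsRNA), with silvestrol at 2 µg/ml, with the crowding polymer PEG at 1%, or untreated (mock). Each pellet was spun at 14000 g for 10 min and washed, the Input extract was not pelleted, and poly(A)-selected RNA was sequenced from 3 replicates of each group. No incubation time or temperature is given for Input, so a difference between pellet and Input cannot be told apart from a change during the 2 h at 37 °C. A pelleted fraction can also hold aggregates or membranes. CPM is a share of each library, so the amount of RNA that each pellet held was not measured, and a lower share cannot be told apart from a larger gain by other RNAs. Input held the mesenchymal and bone-lineage mRNAs VIM, SPARC, COL1A1 and RUNX2 at 1557, 546, 583 and 67.0 CPM. TWIST1 was at 0.0165 CPM, and the epithelial, blood and liver markers CDH1, PTPRC and ALB were at 0.496, 0.162 and 0 CPM, although EPCAM was at 10.0 CPM.

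SGs form when translation initiation stalls and mRNAs released from ribosomes meet RNA-binding proteins, G3BP1 above all. Long and poorly translated mRNAs are known to gather in SGs, whereas short, well translated mRNAs tend to stay out. PEG crowds macromolecules and can bring RNA and protein down without a specific scaffold, dsRNA activates the kinase PKR, and silvestrol clamps the helicase eIF4A on RNA.

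Of the 87 members, 84 were protein-coding and 3 were noncoding. A pair of the noncoding members host microRNAs, small RNAs that pair with target mRNAs through a seed at bases 2 to 8, and their mature sequences are shown because they name what these host transcripts are processed into. MIR34AHG carries the hairpin of miR-34a in an exon, while DLEU2 carries miR-15a in an exon and miR-16-1 in an intron. The RefSeq sequences (GRCh38.p14, all on the minus strand) are printed 5′ to 3′ with the seed in capitals, and lie at chr1:9151735-9151756, chr13:50049167-50049188 and chr13:50049027-50049048.
hsa-miR-34a-5p: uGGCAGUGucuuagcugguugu
hsa-miR-15a-5p: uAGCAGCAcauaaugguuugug
hsa-miR-16-5p: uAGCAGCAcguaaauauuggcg
The last pair share their seed. A hairpin on the gene's own strand lay inside 5 of the 87 members (5.75%), the others being introns of F8, BECN1 and ZNF385B, against 5.23% of the eligible genes. Mature microRNAs have no poly(A) tail and were not counted here.

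The coding members had AU-rich 3′ untranslated regions (UTRs), and 5 of the mRNAs with the strongest depletion are shown in windows of 25 nt that hold the AU pentamer ATTTA in capitals. The pentamer is the core of AU-rich elements, which many regulators of mRNA decay bind. Each window is the stretch with the most copies in the 3′ UTR of the gene's representative transcript (GENCODE 29, GRCh38). UMAD1 is at chr7:7877820-7877844 (+), LSM12 at chr17:44036010-44036034 (-), NXT2 at chrX:109543903-109543927 (+), CBLL1 at chr7:107759591-107759615 (+) and UBE2V1 at chr20:50082710-50082734 (-).
UMAD1: aacacctcaaATTTAtcttagaaga
LSM12: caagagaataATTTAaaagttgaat
NXT2: ttATTTAaaggtagaattATTTAat
CBLL1: ttttatgtgaATTTAagtgcagcca
UBE2V1: ccccaattcgATTTAatcagtcttc
The whole 3′ UTRs held 7, 3, 9, 9 and 6 copies. ATTTA on the transcript's strand was present in the 3′ UTR of 81 of the 84 coding members (96.4%) and of 71.3% of eligible mRNAs. It was also present in 91.2% of the 2309 eligible mRNAs whose 3′ UTR had a similar GC content (32.5 to 37.5%), and those held 3.28 copies per kb where the members held 3.04. The longer nonamer TTATTTATT, which contains the pentamer, was in 8.33% of members and 8.87% of eligible mRNAs. The Pumilio motif TGTANATA was in 28.6% and 28.9%, but within that GC range it was in 30% of 40 members and 45.8% of eligible mRNAs. The polyadenylation signal AATAAA was in 89.3% and 81.6%, and within that range in 92.5% and 92.8%. A match is a description of the letters and not a site.

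The members had median values of -0.84 in mock, -0.93 in dsRNA, -0.90 in silvestrol and -0.97 in PEG pellets, where the eligible genes had -0.05, -0.06, -0.05 and -0.09. The members' median thus left 55.9%, 52.6%, 53.7% and 51.1% of the Input level relative to the median gene. Their reads made up 0.949% ± 0.111 of all counts in Input, 0.533% ± 0.0483 in mock, 0.508% ± 0.00717 in dsRNA, 0.517% ± 0.0124 in silvestrol and 0.375% ± 0.0292 in PEG (SD, n = 3 each). These shares are not centred, and the uncentred log2 ratio of the median kept gene was -0.35 in PEG. Total counts ran from 15341973 to 46939993 per library, and the PEG group was the shallowest, at 15341973 to 25675182.

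Few of the genes depleted from a single kind of pellet were depleted from all 4. Taken alone, the threshold was passed by 1128 eligible genes in mock (9.41%), 1543 in dsRNA (12.9%), 1433 in silvestrol (12%) and 2237 in PEG (18.7%). A total of 1054 genes passed in mock, dsRNA and silvestrol together, and 8.25% of them also passed in PEG and became members. From the other side, the members were 3.89% of the genes that passed in PEG.

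**Figure D1:**
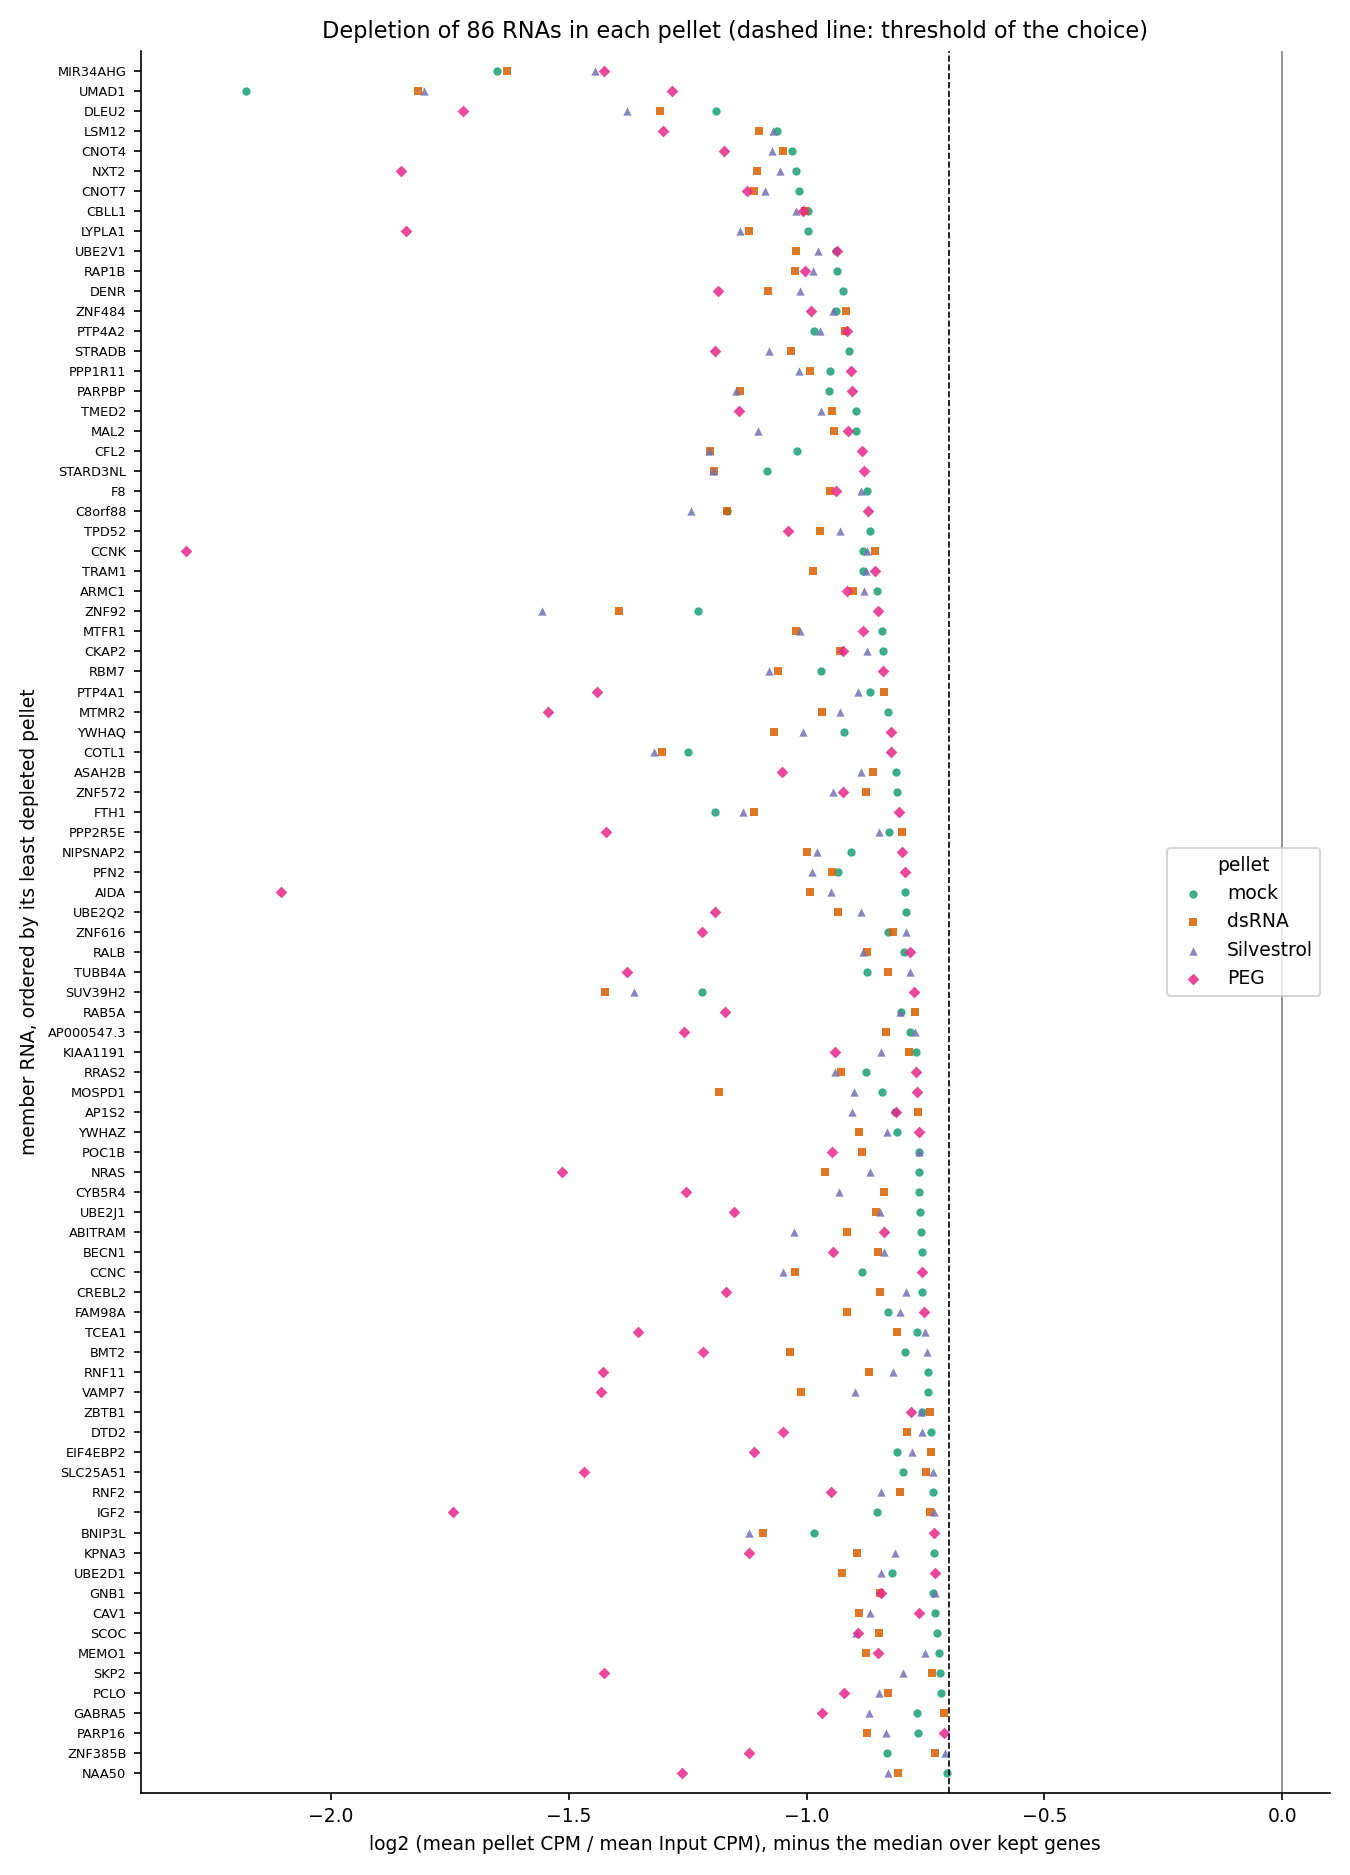
Centred log2 ratio of mean pellet CPM to mean Input CPM (horizontal axis) for 86 of the 87 members, listed from the strongest depletion in the least depleted pellet at the top, with mock as circles, dsRNA as squares, silvestrol as triangles, PEG as diamonds and the threshold of -0.7 as a dashed line. The mock, dsRNA and silvestrol points of most members lie close together. Over the members the points run from -0.70 down to -2.18 in mock, -0.71 to -1.82 in dsRNA, -0.71 to -1.81 in silvestrol and -0.71 to -2.30 in PEG.

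The threshold cut through a dense range of values. Of the members, 49 had a largest value within 0.1 of the threshold, and 99 genes lay within 0.1 outside it. Nearest inside were NAA50, an N-terminal acetyltransferase (-0.70 in mock), the zinc finger gene ZNF385B (-0.71 in silvestrol), PARP16, an ADP-ribosyltransferase of the endoplasmic reticulum (-0.71 in PEG), GABRA5, a GABA receptor subunit (-0.71 in dsRNA), and PCLO (-0.72 in mock). Nearest outside were FAM81A (just above -0.70 in dsRNA), ARMC10 (-0.70 in PEG), DCAF6 (-0.69 in PEG), LINC00862 (-0.69 in mock, with -2.17 in PEG) and SFXN1 (-0.69 in mock).

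Factors of RNA turnover, processing and export held 6 members, 5 of which were among the 10 members most depleted in their least depleted pellet; the grouping of members by role was made after they were known and has no share among all genes to be read against. CNOT7 (ENSG00000198791, chromosome 8, 17224964 to 17246878, minus strand) encodes a catalytic deadenylase of the CCR4-NOT complex, which removes poly(A) tails. It was at 168, 124 and 122 CPM in Input replicates 1 to 3, at 85, 61.2 and 67.2 in mock, at 70.6, 66.0 and 61.2 in dsRNA, at 74.6, 60.8 and 67.0 in silvestrol and at 56.6, 46.2 and 46.0 in PEG. Every pellet library lay below every Input library, and the centred values were -1.02, -1.11, -1.09 and -1.12 in mock, dsRNA, silvestrol and PEG. CNOT4 (ENSG00000080802, chromosome 7, 135361795 to 135510127, minus strand), a ubiquitin ligase that associates with the same complex, was at 23.3 ± 3.31 CPM in Input, 11.9 ± 0.845 in mock and 8.08 ± 1.66 in PEG (SD, n = 3), with values of -1.03, -1.05, -1.07 and -1.17. The other 8 eligible genes named CNOT were outside the module. CNOT1, the scaffold subunit, had values of -0.11, -0.28, -0.13 and -1.37, and CNOT2 had -0.73, -0.76, -0.83 and -0.15. Thus the complex's mRNAs did not share the members' profile.

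LSM12 (ENSG00000161654, chromosome 17, 44034635 to 44067619, minus strand) encodes an Lsm-domain protein that binds ataxin-2, itself an SG protein. Its Input replicates were at 58.4, 41.3 and 40.9 CPM, with 29.3, 19.0 and 22.0 in mock, 22.8, 21.7 and 23.1 in dsRNA, 24.5, 21.2 and 23.7 in silvestrol and 16.9, 14.4 and 13.4 in PEG. The groups of pellets did not overlap Input, and the values were -1.06, -1.10, -1.07 and -1.30. NXT2 (ENSG00000101888, chromosome X, 109535781 to 109544690, plus strand), a partner of the NXF mRNA export receptors, was at 20.1, 14.9 and 14.7 CPM in Input, 8.52, 7.77 and 9.21 in mock and 4.56, 2.90 and 3.31 in PEG. Its PEG value (-1.85) was lower than its mock, dsRNA and silvestrol values (-1.02, -1.10 and -1.06). CBLL1 (ENSG00000105879, chromosome 7, 107743697 to 107761667, plus strand), a component of the RNA m6A methyltransferase complex, had nearly equal values in all 4 pellets (-1.0, -1.0, -1.02 and -1.01) and was at 32.5 ± 1.09 CPM in Input and 17.0 ± 0.778 in mock. RBM7, the RNA-binding subunit of the nuclear exosome targeting complex, had values of -0.97, -1.06, -1.08 and -0.84.

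The strongest depletion in the least depleted pellet was that of MIR34AHG (ENSG00000228526, chromosome 1, 9148011 to 9196983, minus strand), whose transcription is driven by p53. MIR34AHG was at 7.06, 8.10 and 5.96 CPM in Input, 1.68, 3.09 and 2.25 in mock, 2.18, 3.25 and 1.61 in dsRNA, 2.56, 2.80 and 2.69 in silvestrol and 2.28, 2.04 and 1.83 in PEG. Its highest pellet library stayed below its lowest Input library, and no pellet had over 37.2% of the Input level left relative to the median gene. DLEU2 (ENSG00000231607, chromosome 13, 49982552 to 50125720, minus strand), a long noncoding RNA of the region deleted in B-cell leukaemia, was at 10.7, 2.98 and 3.68 CPM in Input, 3.83, 2.25 and 1.85 in mock and 1.69, 1.18 and 1.25 in PEG. Its membership rested on Input replicate 1: Input and pellet libraries overlapped, and without that library its largest value was -0.37 instead of -1.19. AP000547.3 (ENSG00000283633, chromosome 22, 16601911 to 16615111, plus strand) was at 44.0 ± 3.17 CPM in Input, 26.7 ± 2.70 in mock and 14.4 ± 1.59 in PEG (SD, n = 3). MIR34AHG overlaps exons of LNCTAM34A on the opposite strand, AP000547.3 those of TPTEP1 on its own strand, and DLEU2 those of TRIM13 on the opposite strand, so their reads could not be told apart from those of these neighbours.

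UMAD1 (ENSG00000219545, chromosome 7, 7640711 to 7968020, plus strand), which encodes a protein with a UMA domain, had the lowest mock value of all members. It was at 21.8, 27.1 and 25.9 CPM in Input, 4.49, 6.47 and 6.25 in mock, 3.39, 7.06 and 11.4 in dsRNA, 5.14, 6.77 and 10.3 in silvestrol and 6.71, 7.69 and 9.66 in PEG. The Input libraries lay well above all pellet libraries, with values of -2.18, -1.82, -1.81 and -1.28, and UMAD1 was the member least depleted by PEG relative to the other pellets. Its exons overlap those of AC007161.3 on the same strand and of RPA3 on the opposite strand.

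**Figure D2:**
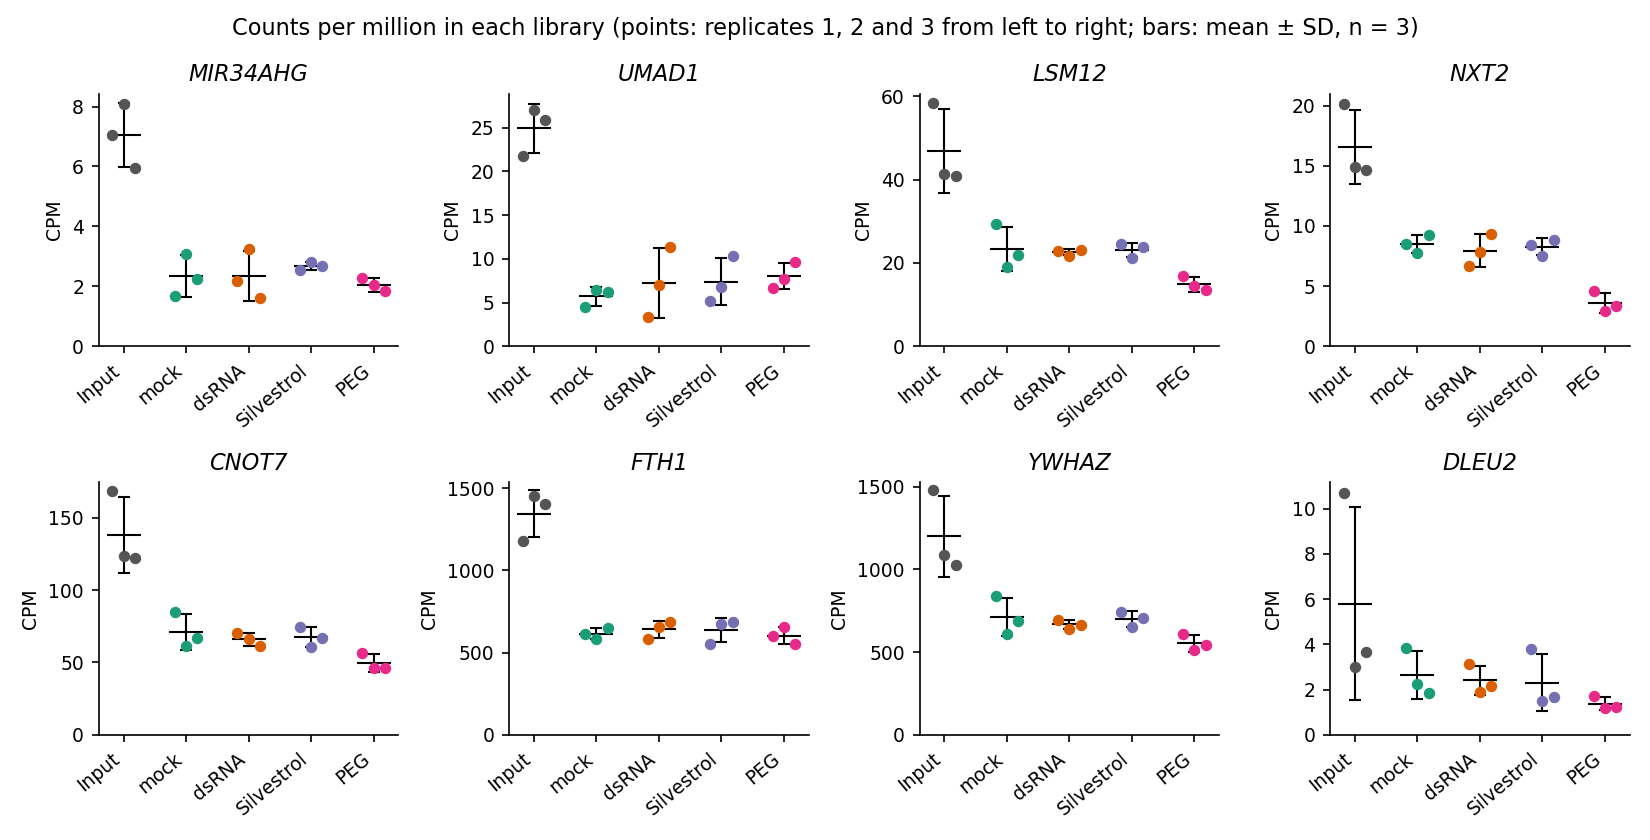
CPM (vertical axis, linear, from 0) in each of the 15 libraries for 8 members, with 1 point per library, replicates 1 to 3 from left to right, and bars at the group mean ± SD (n = 3). In every panel but that of DLEU2 all pellet libraries lie under all Input libraries, and for DLEU2 Input replicate 1 (10.7 CPM) stands above the other Input libraries (2.98 and 3.68 CPM).

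Enzymes of the ubiquitin pathway held 6 members, which attach or help attach the small protein ubiquitin to others. UBE2V1 (ENSG00000244687, chromosome 20, 50081124 to 50115959, minus strand), a catalytically inactive conjugating-enzyme variant that helps build lysine-linked chains, was at 65.2, 43.9 and 48.0 CPM in Input and at 28.5 ± 3.78 in mock and 21.4 ± 1.38 in PEG (SD, n = 3). Its values were -0.94, -1.02, -0.98 and -0.94, with the reservation that it has 15 named pseudogenes and overlaps the readthrough gene PEDS1-UBE2V1. The conjugating enzymes UBE2Q2 (-0.79, -0.93, -0.89 and -1.19), UBE2J1 (-0.76, -0.85, -0.85 and -1.15) and UBE2D1 (-0.82, -0.93, -0.84 and -0.73) were members too. So were SKP2, the F-box subunit that targets the cell cycle inhibitor p27, and RNF11, both with a PEG value of -1.43. Among 32 eligible genes named UBE2, a family picked after the members were known, 16 passed the threshold in mock, dsRNA and silvestrol and 4 passed in PEG. Over all 11981 eligible genes 1054 passed in mock, dsRNA and silvestrol and 2237 passed in PEG. The close relative UBE2V2 had -1.07, -1.21 and -1.30 in mock, dsRNA and silvestrol and 0.25 in PEG, and UBE2D3 had -0.92, -0.99, -0.96 and -0.49. For these relatives the PEG value differed from that of the member, while UBE2J2 (0.27, 0.37, 0.29 and 0.32) and UBE2Q1 (0.22, 0.39, 0.32 and 0.37) lay above UBE2J1 and UBE2Q2 in every pellet.

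Signalling GTPases and their relatives gave 7 members, among them RAP1B, RALB, NRAS, RRAS2, RAB5A and the G protein subunit GNB1. RAP1B, a regulator of cell adhesion, was at 74.4, 73.2 and 74.6 CPM in Input and 40.3 ± 4.69 in mock (SD, n = 3), with values of -0.94, -1.02, -0.99 and -1.0. NRAS, a proto-oncogene GTPase, was at 256, 156 and 143 CPM in Input, and its Input and pellet libraries overlapped. The paralogue RAP1A had -1.13, -1.10 and -1.13 in mock, dsRNA and silvestrol and -0.42 in PEG, RALA had -0.94, -1.10, -1.15 and -0.53, and CDC42 had -1.11, -1.24, -1.24 and -0.29. RAP1A and RALA thus passed the threshold, like RAP1B and RALB, in mock, dsRNA and silvestrol, and did not in PEG. Of 88 eligible genes of the RAS superfamily, also picked afterwards, 6 were members, 18 passed in mock, dsRNA and silvestrol, and 26 passed in PEG. The same counts over all 11981 eligible genes were 87, 1054 and 2237. GNB1, the G protein beta subunit, was at 494 ± 73.3 CPM in Input and had values of -0.73, -0.85, -0.73 and -0.84.

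Several members encode abundant regulators of signalling, iron storage and the cytoskeleton. CPM is not corrected for length, and per kb of exon FTH1 (663 CPM per kb), YWHAZ (140) and YWHAQ (122) had the highest Input levels, where the median member had 11.9. FTH1 (ENSG00000167996, chromosome 11, 61959718 to 61967660, minus strand), the ferritin heavy chain that stores iron, was at 1181, 1454 and 1401 CPM in Input, 613, 580 and 647 in mock, 585, 657 and 685 in dsRNA, 551, 673 and 685 in silvestrol and 601, 655 and 553 in PEG. All pellets sat near the same level, under the lowest Input library, and the values were -1.19, -1.11, -1.13 and -0.81. FTH1 has 25 named pseudogenes that could share its reads, and 28 of the 87 members have at least 1. YWHAZ (ENSG00000164924, chromosome 8, 100916525 to 100953388, minus strand), a 14-3-3 adaptor that binds phosphorylated proteins, was at 1479, 1090 and 1028 CPM in Input, 837, 611 and 691 in mock and 609, 511 and 540 in PEG, with values of -0.81, -0.89, -0.83 and -0.76. YWHAQ, another 14-3-3 adaptor, had -0.92, -1.07, -1.01 and -0.82. The other eligible 14-3-3 mRNAs differed by pellet: YWHAE passed in mock, dsRNA and silvestrol (-0.84, -0.97 and -0.90) and not in PEG (-0.23), and YWHAG did the reverse (-0.43, -0.49 and -0.39, against -1.23).

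The cytoskeletal members were PFN2, CFL2 and COTL1, which bind actin, and TUBB4A, CKAP2 and POC1B of microtubules and centrioles. PFN2, a profilin, was at 414, 309 and 301 CPM in Input and had values of -0.93, -0.95, -0.99 and -0.79. COTL1 had -1.25, -1.30, -1.32 and -0.82, but its largest value became -0.45 without Input replicate 1. PTP4A1 (-0.87, -0.84, -0.89 and -1.44) and PTP4A2 (-0.98, -0.92, -0.97 and -0.92) encode prenylated phosphatases at 261 ± 47.1 and 248 ± 55.0 CPM in Input (SD, n = 3). The paralogue PTP4A3, with a GC content of 62.6%, had values of -0.34, -0.32, -0.37 and -0.03. The other regulators of phosphorylation were MTMR2, a phosphoinositide phosphatase (-0.83, -0.97, -0.93 and -1.54), PPP2R5E, a regulatory subunit of protein phosphatase 2A (-0.83, -0.80, -0.85 and -1.42), PPP1R11, an inhibitor of protein phosphatase 1 (-0.95, -0.99, -1.02 and -0.91), and STRADB, a pseudokinase (-0.91, -1.03, -1.08 and -1.19). The members left without a role were KPNA3, an importin, CYB5R4, a reductase, BMT2, MEMO1, KIAA1191, ABITRAM, ASAH2B and C8orf88, and C8orf88 was the most depleted of these in mock (-1.17, -1.17, -1.24 and -0.87).

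Translation and the modification of proteins and tRNA for it gave 5 members. DENR (ENSG00000139726, chromosome 12, 122752774 to 122771064, plus strand), which acts in reinitiation and ribosome recycling, was at 323, 180 and 188 CPM in Input, 155, 112 and 113 in mock and 90.9, 80.1 and 66.6 in PEG. Its lowest Input library was above all pellets, but the largest value of -0.92 became -0.58 without Input replicate 1. EIF4EBP2, a repressor of the cap-binding protein eIF4E, had -0.81, -0.74, -0.78 and -1.11. FAM98A and DTD2, linked to tRNA ligation and to the proofreading of aminoacyl-tRNA, were the other members of this group besides NAA50. NAA50 was at 354, 284 and 298 CPM in Input and at 102 ± 15.3 in PEG. Of the 82 eligible cytosolic ribosomal protein mRNAs 0 were members, which is near the 0.726% of all eligible genes. Their median was -0.60 in mock and 1.34 in PEG, and 22 of them passed the threshold in mock, dsRNA and silvestrol while 0 passed in PEG. The 74 eligible respiratory chain mRNAs had the same pattern, with medians of -0.79 and 1.09, 44 that passed in those 3 pellets and 0 in PEG. Over all 11981 eligible genes 1054 passed in those 3 pellets and 2237 in PEG.

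Of 11 members in membrane traffic, TMED2, a cargo receptor of the early secretory pathway, was at 156 ± 11.6 CPM in Input and had values of -0.90, -0.95, -0.97 and -1.14. TRAM1, which sits beside the protein translocation channel, had -0.88, -0.99, -0.88 and -0.86, and the SNARE protein VAMP7 had -0.74, -1.01, -0.90 and -1.43. AP1S2, a subunit of a clathrin adaptor, had -0.81, -0.76, -0.90 and -0.81, and MAL2, STARD3NL, TPD52, MOSPD1, SCOC and PCLO were the further members. CAV1, the main protein of caveolae, was at 81.8, 46.9 and 42.6 CPM in Input, overlapped the pellets, and had a largest value of -0.35 without Input replicate 1. LYPLA1, a thioesterase that removes palmitate from membrane proteins, was among the most depleted, with -1.0, -1.12, -1.14 and -1.84 and an Input level of 76.8, 64.4 and 61.0 CPM. Mitochondria and autophagy gave 6 members, among them BECN1 (-0.76, -0.85, -0.84 and -0.94), a core autophagy factor, BNIP3L (-0.98, -1.09, -1.12 and -0.73), a mitophagy receptor, and SLC25A51 (-0.80, -0.75, -0.73 and -1.47), the mitochondrial NAD+ carrier. The largest value of SLC25A51 rose to as much as -0.39 with 1 library left out. ARMC1, MTFR1 and NIPSNAP2 completed this group. Of the 204 eligible solute carriers 1 was a member, SLC25A51, a count near the 0.726% of all eligible genes.

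Transcription and chromatin held 13 members. CCNK (cyclin K, the partner of CDK12) was at 36.3, 28.3 and 30.5 CPM in Input, 19.4, 16.2 and 18.2 in mock and 7.10, 4.51 and 3.47 in PEG. Its values of -0.88, -0.86 and -0.87 in mock, dsRNA and silvestrol were nearly equal, and its PEG value of -2.30 was the lowest of any member. SUV39H2, a histone H3 lysine methyltransferase, had the reverse order, with -1.22, -1.42, -1.36 and -0.78. SUV39H2 was at 80.7, 46.4 and 44.3 CPM in Input, and its largest value was -0.40 without replicate 1. Of 336 eligible genes named ZNF, 5 were members, namely ZNF92 (-1.23, -1.39, -1.56 and -0.85), ZNF385B, ZNF484, ZNF572 and ZNF616. Of those 336 genes, 8 passed in mock, dsRNA and silvestrol, and 93 passed in PEG, where 1054 and 2237 of all 11981 eligible genes did. The growth factor IGF2, which cells secrete, was at 213, 228 and 241 CPM in Input and 66.8, 52.4 and 40.4 in PEG, with values of -0.85, -0.74, -0.73 and -1.74. The other members of this group were CCNC, a Mediator cyclin (-0.88, -1.02, -1.05 and -0.76), RNF2, a Polycomb ubiquitin ligase (-0.73, -0.80, -0.84 and -0.95), TCEA1, the elongation factor TFIIS (-0.77, -0.81, -0.75 and -1.35), and PARPBP, ZBTB1 and CREBL2. At the share of 0.726% of all eligible genes, lists of this size hold few members or none, and 0 members were among the 26 eligible mRNAs of core SG proteins, 21 of chaperones of the endoplasmic reticulum, 22 of the extracellular matrix, 17 of glycolysis and 18 of histones.

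The coding members shared a structure that the rule had not used, namely a short coding sequence, a low GC content and a long 3′ UTR. Their median coding sequence was 825 nt where that of the eligible mRNAs was 1428 nt, and their median GC content was 40.4% against 48.8%. The median 3′ UTR was 1678 nt against 1184 nt and took 61.4% of the transcript against 39.2%, so whole transcripts differed less (2929 and 3340 nt). Low GC content was found in the coding sequence (43.5% and 52.1%) and in the 3′ UTR (34.7% and 42.2%), but not in the 5′ UTR (69.7% and 66.8%). Members with a coding sequence under the eligible median numbered 67 of 84 (79.8%), and those with GC under its median 74 (88.1%). Those with both numbered 58 (69.0%), where 24.1% of eligible mRNAs had both. Short, GC-poor mRNAs were also the largest class past the threshold in mock, dsRNA or silvestrol taken singly, so this structure was not particular to members. Mock had 689 of them, with 265 short GC-rich, 89 long GC-poor and 23 long GC-rich mRNAs. The counts in the same order were 936, 316, 170 and 30 in dsRNA and 866, 329, 137 and 19 in silvestrol. PEG had 470, 122, 1053 and 440, so long GC-poor mRNAs were the largest class there. CCNK was the 1 member (1.19%) with both a long coding sequence and a high GC content, against 24.3% of eligible mRNAs.

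**Figure D3:**
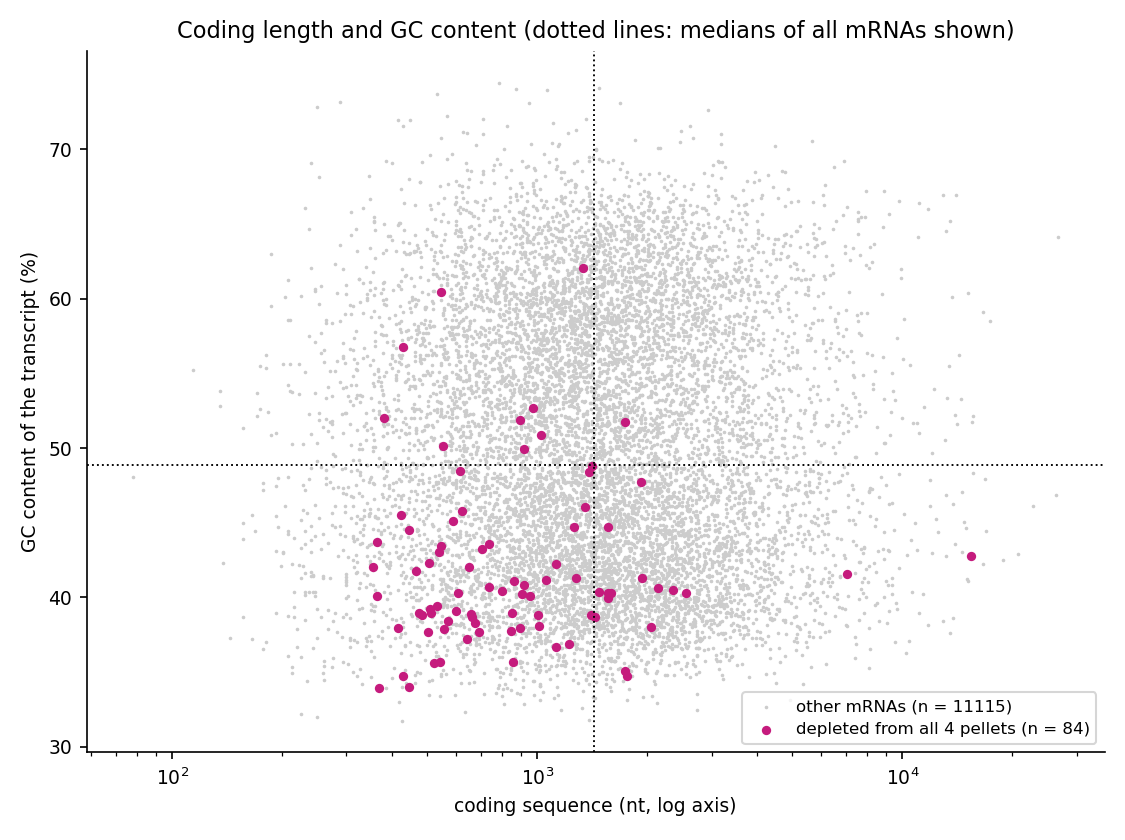
Coding sequence length (horizontal axis, nt, log scale) against GC content of the representative transcript (vertical axis, %) for the 84 coding members in colour and the other eligible mRNAs in grey, with dotted lines at the eligible medians of 1428 nt and 48.8%. The members gather in the lower left, where 58 of them lie.

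Exceptions stood out by name. Only 6 members had a coding sequence over 2000 nt, namely PCLO, a presynaptic scaffold, F8, coagulation factor VIII, and ZNF484, CKAP2, ZNF616 and ZBTB1. A GC content over 50% was found in 10 members, among them TUBB4A (62.0%), IGF2 (60.4%), COTL1 (56.8%) and MIR34AHG (54.7%).

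The 4 classes of mRNAs made by both medians had different profiles over the pellets. Short, GC-poor mRNAs (2703 genes) had median values of -0.46, -0.54 and -0.50 in mock, dsRNA and silvestrol but -0.04 in PEG. Long, GC-poor mRNAs (2896 genes) had -0.05, -0.08 and -0.07 in those pellets and -0.53 in PEG. Short, GC-rich mRNAs had -0.06, -0.04, -0.05 and 0.54, and long, GC-rich ones 0.48, 0.56, 0.53 and -0.17. Across 11199 eligible mRNAs, which are not independent replicates and share the Input libraries, Spearman's rho between coding length and the values was 0.48, 0.48 and 0.49 in mock, dsRNA and silvestrol and -0.47 in PEG. For GC content it was 0.44, 0.48, 0.48 and 0.35. Hence GC content had the same sign in every pellet, and coding length changed its sign in PEG.

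**Figure D4:**
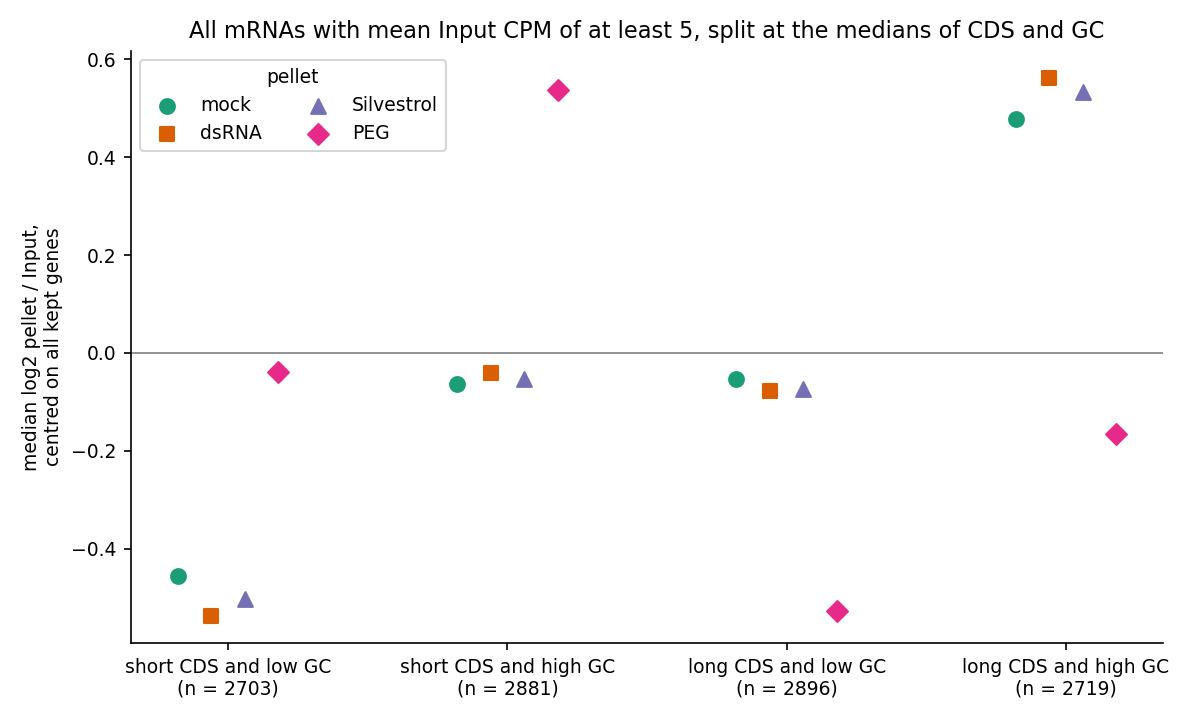
Median centred log2 ratio to Input (vertical axis) of all eligible mRNAs in 4 classes split at the median coding sequence (CDS) length and GC content, with 1 symbol for each kind of pellet. Short, GC-poor mRNAs have the lowest medians in mock, dsRNA and silvestrol (-0.46, -0.54 and -0.50), and long, GC-poor mRNAs have the lowest in PEG (-0.53).

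These shared features depended on how GC content was handled. When a smooth GC trend of each library was taken out before the rule was applied, 46 genes met it, of which 27 were among the 87, and only 26.8% of its coding genes were short and GC-poor, near the 24.1% of all eligible mRNAs. The median GC content of that set was 52.0%, although its median coding sequence was still 873 nt. All 87 members stayed below 0 in every pellet under this offset, and 86 had a largest value of at most -0.35. The 10 members with a GC content over 50% were all members under it as well, with largest values of -1.26 for TUBB4A, -1.11 for IGF2, -1.02 for COTL1 and -1.58 for MIR34AHG. GC content rose with the values in every pellet, so the offset tends to lower GC-rich genes. Their membership under it was therefore favoured in advance. The part of GC content in the depletion was not tested.

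The size of the depletion varied between replicates. The means of these replicates had chosen the members, so the counts by replicate are a description and no support for the depletion. Each of the 87 members was below 0 in every replicate and every pellet, each replicate being set against the Input of the same number. In replicate 1 the threshold was passed by 86, 87, 87 and 82 members in mock, dsRNA, silvestrol and PEG, in replicate 2 by 71, 71, 72 and 64, and in replicate 3 by 59, 59, 56 and 65. The replicate medians in mock were -1.02, -0.80 and -0.78. Input replicate 1 stood apart: it exceeded the other Input replicates for 66 of 87 members and for 42.0% of eligible genes, with a median ratio to their mean of 1.23 for members and 0.971 for eligible genes. Without it the rule found 54 genes, of which 37 were among the 87, whereas without Input replicate 2 it found 151 and without Input replicate 3 126. A core of 27 members met the rule whichever of the 15 libraries was left out. Among its coding genes the median coding sequence was 858 nt and the median GC content 40.5%. Members outside this core included ZNF385B, YWHAZ, GNB1 and PFN2. Their largest values rose to as much as -0.48, -0.54, -0.58 and -0.59 with 1 library left out.

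As a description, the rule was applied to 2 replicates and read in the other. The rule had been set with earlier results of these data known, so the replicate left out was not wholly independent of it. Of 46 genes chosen without replicate 1, 33 passed all 4 thresholds in replicate 1 (71.7%), where 2.76% of eligible genes did. Of 102 chosen without replicate 2, 34 passed in it (33.3%, against 0.378%), and of 116 chosen without replicate 3, 30 passed (25.9%, against 0.386%). In the held-out replicate 97.8%, 100% and 98.3% of the chosen genes were below 0 in all 4 pellets, against 29.3%, 21.1% and 20.9% of eligible genes. Pellets of a held-out replicate share 1 Input library, so the 4 values of a gene there are not independent.

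Non-overlap of the libraries, which belongs to the contrast that chose the members and is thus no test, was as follows. All 3 pellet libraries lay below all 3 Input libraries for 80 members in mock (26.7% of eligible genes), 84 in dsRNA (31% of eligible genes), 83 in silvestrol (29.6%) and 87 in PEG (53.9%). All 12 pellet libraries were below every Input library for 79 of 87 members (11.9% of eligible genes). The 8 members with overlap were DLEU2, MAL2, NRAS, FAM98A, SLC25A51, KPNA3, CAV1 and ZNF385B.

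The pellets were then compared with one another by edgeR's quasi-likelihood test over 16612 genes, with Benjamini-Hochberg adjustment and a threshold of 0.05. Both groups of each such comparison had entered the rule, which bounds how far members could differ. PEG against mock compared the pellet of the crowded reaction with that of the untreated reaction. The largest differences were the lower levels of CCNK and AIDA and the higher level of UMAD1 in PEG pellets. Among the 87 members 4 were higher (31.3% of all genes tested) and 22 lower in PEG (32.2% of all genes), with a median log2 fold change of -0.11 for members and -0.03 for all genes. CCNK was lower by a log2 fold change of -1.40 (SE 0.219, edgeR adjusted p = 0.000348), and its PEG libraries (7.10, 4.51 and 3.47 CPM) lay far below its mock libraries (19.4, 16.2 and 18.2 CPM). AIDA, which binds axin and phospholipids, was at 112, 89.8 and 84.4 CPM in Input, 67.7, 52.9 and 51.8 in mock and 21.0, 16.8 and 14.4 in PEG, and its log2 fold change was -1.28 (SE 0.169, edgeR adjusted p = 0.000124). IGF2 was lower by -0.85 on the log2 scale (SE 0.151, edgeR adjusted p = 0.000779). LYPLA1 (-0.80), NXT2 (-0.79), NRAS (-0.71), MTMR2 (-0.68) and SKP2 (-0.67) were lower in PEG as well.

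The 4 members that were higher in PEG than in mock were UMAD1, SUV39H2, FTH1 and BNIP3L. UMAD1 was higher by 0.96 (SE 0.204, edgeR adjusted p = 0.00221) on the log2 scale, with groups that did not overlap in CPM. Its call was lost with library size as the only scaling (edgeR adjusted p = 0.0620). FTH1 was higher by 0.44 (SE 0.134, edgeR adjusted p = 0.0157) after TMM scaling, although its CPM overlapped between the groups. With library size as the only scaling FTH1 differed by -0.026 (edgeR adjusted p = 0.854), since that scaling moved the median of all genes from -0.03 to -0.49. SUV39H2 (0.48, SE 0.188, edgeR adjusted p = 0.0478) and BNIP3L (0.30, edgeR adjusted p = 0.0408) lay near the threshold. The call of SUV39H2 was lost in 6 alternatives (adjusted p from 0.0606 to 0.912 by edgeR), 4 of which left out 1 library. With library size as the only scaling 0 members were higher and 65 lower, where all 16612 genes gave 3118 and 8272. With the replicate block and a GC offset the members gave 9 and 20, and all genes 5644 and 5712. Without mock replicate 1 the members gave 12 and 24, and all genes 5669 and 5773. Without mock replicate 2 the members gave 1 and 21, and all genes 4712 and 4877. Without PEG replicate 3 the members gave 2 and 13, and all genes 4705 and 4272. The 4 members that were higher had a median transcript of 2622 nt, the 22 that were lower 3639 nt and the others 2816 nt.

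**Figure D5:**
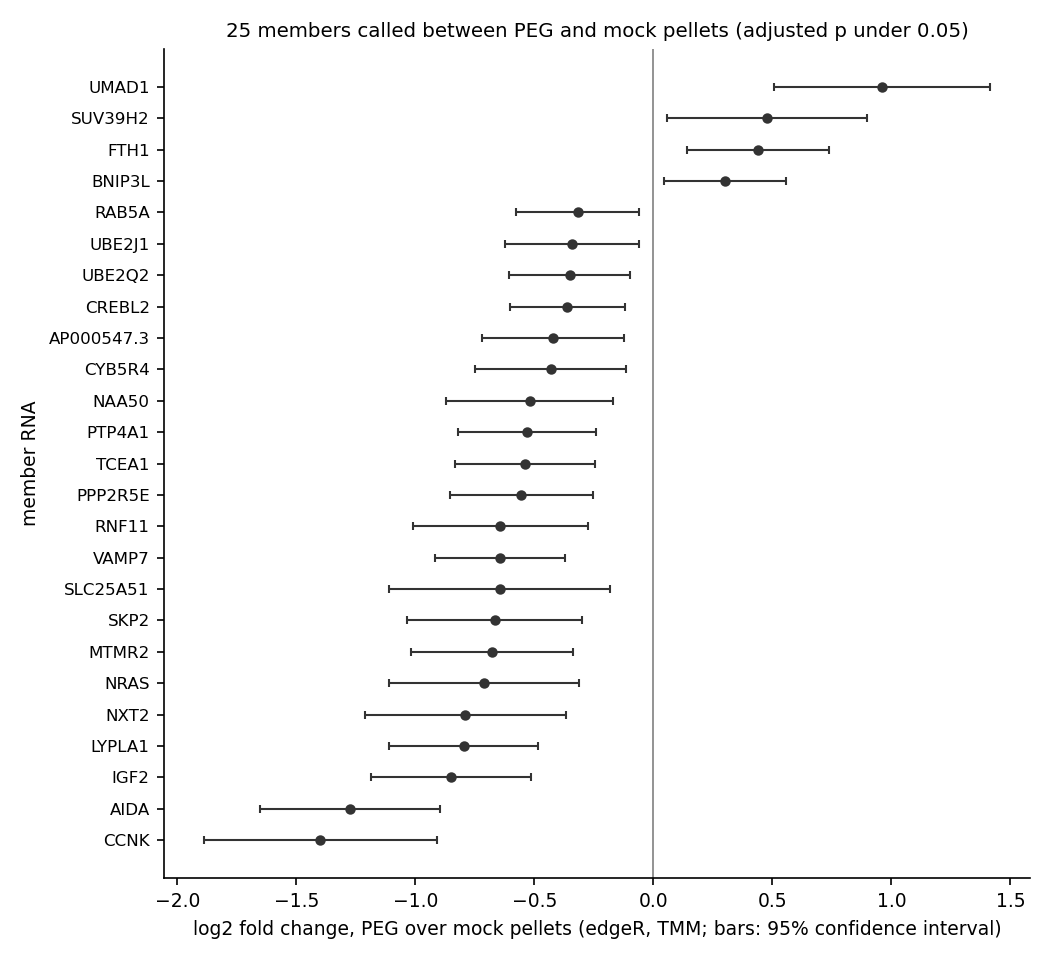
Log2 fold change of PEG over mock pellets (horizontal axis, edgeR with TMM scaling) for 25 of the 26 members past the adjusted p threshold, with 95% confidence intervals as bars. CCNK (-1.40) and AIDA (-1.28) lie at the low end and UMAD1 (0.96) at the high end, and 21 of the 25 drawn lie below 0.

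Without the replicate block, no member was called between the dsRNA, silvestrol and mock pellets, and with the block VAMP7 alone was called. In dsRNA against mock, edgeR without the block called 0 members higher (0% of all genes) and 0 lower (0%), and the members' log2 fold changes ran from -0.35 to 0.34 with a median of -0.10. At an unadjusted p under 0.05 there was 1 member, VAMP7, among 374 genes, and DESeq2 called 0 members and 64 other genes, all lower. With the replicate number as a block 0 members were higher (0.15% of all genes) and 1 lower (2.65% of all genes), which was VAMP7 at -0.28 (edgeR adjusted p = 0.00898). An unadjusted p under 0.05 was then found for 16 of the 87 members and for 2101 of the 16612 genes. In silvestrol against mock, edgeR without the block called 0 members and 0 genes (0% in each direction), with 0 members and 35 genes at an unadjusted p under 0.05 and 0 genes by DESeq2. With the block 0 members were called, as 2 genes were higher (0.012%) and 0 lower (0%). There 17 of the 87 members and 1078 of the 16612 genes had an unadjusted p under 0.05. In dsRNA against silvestrol edgeR without the block also called 0 members and 0 genes (0% in each direction), with 0 members and 330 genes at an unadjusted p under 0.05, while DESeq2 called 68 genes, none of them a member. With the block 39 genes were higher (0.235%) and 414 lower (2.49%), of which 0 were members. There 6 of the 87 members and 1769 of the 16612 genes had an unadjusted p under 0.05. The members' 95% intervals had a median half-width on the log2 scale of 0.32, 0.32 and 0.29 without the block and of 0.15, 0.14 and 0.13 with it, in dsRNA against mock, silvestrol against mock and dsRNA against silvestrol. Equality of these pellets was not shown.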

How the data were processed

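Poly(A)-selected RNA was sequenced from U2OS extract (Input) and from 4 kinds of pellet in 3 biological replicates each (15 libraries), and nothing further says whether these were separate extracts, so p-values measure the spread between these samples. Values were deposited as raw counts of reads per gene and library, not normalised by the authors. Submitters' processing notes name Trimmomatic 0.36, STAR 2.5.2b, featureCounts (Subread 1.5.2) and GRCh38. The strand setting and annotation release are not given in the sources used here, so reads of overlapping, antisense or near-identical genes cannot be told apart.

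Genes needed at least 10 counts in 2 replicates of each condition, which kept 16612. Centred log2 ratios were computed from mean CPM without a pseudocount. The members and the gene lists were chosen with earlier results of these data known. Transcript features came from GENCODE 29 (83 of 87 members with the same span) and microRNAs from RefSeq. Pellets were compared with edgeR 4.0.16 in R 4.3.3 (TMM, quasi-likelihood, prior count 2, 6 libraries per comparison). The fit was also run on simulated data with few changed genes, balanced in direction. Many genes differ between PEG and mock, so that run does not check the scaling there. DESeq2 1.42.0, other scalings and filters, a GC offset, the replicate block and each library left out were alternatives. Labels number the replicates alike in each group. Deviations from group means correlated at 0.143 to 0.885 between same-numbered libraries and at -0.784 to 0.627 between others. Deviations within a group offset one another, which favours negative correlations between different numbers. Replicate 1 correlated negatively with replicates 2 and 3, but Input 2 was at 0.616 with mock 2 and 0.627 with mock 3. How replicates 2 and 3 pair across groups was thus not settled, and the block served only as an alternative.

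Named genes were the 10 members with the lowest largest value, the 10 with the highest Input CPM, the 5 nearest each side of the threshold, the 3 at each end of the PEG difference and of called pellet differences, up to 5 per list, and the 5 most moved without 1 Input library. Other names were chosen after their values were seen. Counts cover all 87 members, of which 1 is not reported here by name or drawn in the plots of named members.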

Additional observations from a re-analysis of the deposited data

Results flagged for a closer look

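By edgeR's test of PEG against mock, 4 of the 87 members were higher in PEG (31.3% of all genes tested). A further 22 were lower (32.2% of all genes tested). In both directions the share of members called was below that of all genes. Both groups had entered the rule, which bounds how far members could differ. The members with the largest differences were CCNK (-1.40 on the log2 scale), AIDA (-1.28) and IGF2 (-0.85), which were lower, and UMAD1 (0.96), SUV39H2 (0.48) and FTH1 (0.44), which were higher. UMAD1, SUV39H2 and FTH1 lost their call under some alternatives, given in the next paragraph.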

How the results depend on the processing

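The number of genes that met the rule was 87. It became 153 without median centring, 7 at a threshold of -1, 383 at -0.5, 54 with median CPM, 46 with the GC offset and 48 with the offset and the replicate block, and 54 (without Input replicate 1) to 151 (without Input replicate 2) when 1 library was left out. The share of coding members that were short and GC-poor, 69.0%, became 80% at a threshold of -1, 26.8% with the GC offset, 30.2% with the offset and the block, and 56.9% to 72.8% when 1 library was left out. The held-out shares below 0 were 97.8%, 100% and 98.3%. In PEG against mock, 4 members were higher and 22 lower, where all genes gave 5207 higher and 5350 lower. The member counts were 0 and 65 with library size only, where all genes gave 3118 higher and 8272 lower. The higher count of members was 2 in a fit of all 5 groups (4868 over all genes) and 9 with the block and GC offset (5644 over all genes). Leaving out 1 library gave 1 (without mock replicate 2) to 12 (without mock replicate 1) higher and 13 (without PEG replicate 3) to 24 lower, and 4662 to 5669 higher and 4194 to 5773 lower over all genes. FTH1 turned from 0.44 to -0.026 with library size only, and lost its call with all genes tested (adjusted p = 0.0837) and without mock replicate 2 (0.0735). UMAD1 lost its call with library size only (0.0620). SUV39H2 lost its call with library size only, in the fit of all 5 groups, and without mock replicate 2 or 3 or PEG replicate 1 or 3 (adjusted p from 0.0606 to 0.912). In dsRNA against mock, 0 genes were called. The block called 25 higher and 441 lower (1 member), the block with the GC offset 99 and 441 (1 member), DESeq2 64 lower, all genes 23 lower, and the fit of all 5 groups 15 lower. In silvestrol against mock the block called 2 higher, and 3 with the GC offset. In dsRNA against silvestrol the block called 39 higher and 414 lower, the block with the GC offset 74 and 420, DESeq2 68 lower, all genes 13 lower, and the fit of all 5 groups 8 lower. The replicate block changed no other call count by over 1.5 times. Non-overlap of all 12 pellets with Input held for 79 members with CPM, 81 with TMM, 79 with DESeq2 size factors and 75 with the GC offset, an alternative added after the data were seen. The causes of these moves were not tested, beyond the fewer libraries and the stricter or looser filters that the alternatives use. The PEG libraries were the shallowest, and how far depth limited the precision of low members was not tested. For DLEU2 the SD was 0.281 CPM in PEG and 4.26 CPM in Input.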

Other observations

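Chromosome 8 carried 12 of the 87 members (13.8%) and 3.60% of the eligible genes. The 12 were CNOT7, YWHAZ, LYPLA1, TRAM1, TCEA1, MTFR1, ARMC1, TPD52, MAL2, ZNF572, BNIP3L and C8orf88, and the chromosome was picked after the values were seen. Eligible genes of chromosome 8 had median values of -0.10, -0.13, -0.13 and -0.14 in mock, dsRNA, silvestrol and PEG pellets, close to those of all eligible genes. The share was 4.35% of the genes that met the rule under the GC offset and 11.1% of the 27 members that met it whichever library was left out. Chromosome 7 carried 9 members (10.3%, against 4.76% of eligible genes) and chromosome 19, which is rich in GC, carried 2 (2.30%, against 6.63%).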
